A study of Mus musculus with 6 samples.

Results

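The genes described here are 8 transcription factors known from liver, pancreas and gut, taken by symbol from RNA-seq gene tables of mouse embryonic stem cells (ESCs) and of endoderm made from them: Hnf4a, Hnf4g, Nr1h4, Onecut1, Onecut2, Prox1, Pdx1 and Cebpa. All 8 were among the 24054 genes of the tables. RNA was measured in 3 populations sorted by FACS from 1 double knock-in ESC line, in which one allele of Foxa2 carries the fluorescent reporter Venus and both alleles of Sox17 carry Cherry, so all groups shared these alleles. The d0 cells were undifferentiated ESCs with neither reporter, the d3F cells were Venus-positive and Cherry-negative on day 3 of differentiation, and the d5FS cells were positive for both on day 5. Differentiation was driven by Wnt3a at 1 ng/ml and Activin A at 10 ng/ml, signalling proteins that direct ESCs towards endoderm. The same line and gates limit what the groups model: the result is from 1 genetic background, and Foxa2 and Sox17 were themselves the sorting genes.

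Each population had 2 independent replicates, 6 samples in all, and a sample was a bulk of sorted cells, in which fewer cells of a type and less RNA per cell cannot be told apart. Total expected counts, the RSEM estimates of fragments per gene, ran from 16457728.93 to 22768686.01 per sample. All 8 definitive endoderm markers checked (Sox17, Foxa2, Foxa1, Cer1, Cxcr4, Hhex, Gata4 and Gata6) passed the test as higher in d5FS than in d0, and all 8 pluripotency markers passed as lower. For Sox17 and Foxa2 the sort itself set the direction. Replicates of a population differed by far more than counting noise, with 84.09 to 185 chi-square per degree of freedom across genes. The listed RNA preparation (mRNA or total RNA) also differed within each pair of replicates, and its part in this spread was not tested. Genes with any count numbered 16790 and 19910 in d5FS replicates 1 and 2, although their depths were alike. Genes without a protein-coding transcript took 54.32% to 76.87% of TPM and 11.71% to 16.6% of counts, so levels across samples are given as CPM (expected counts scaled to a common library total) and levels between genes as TPM rescaled to coding genes.

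HNF4 proteins are nuclear receptors that bind DNA as homodimers and switch on genes for lipoproteins, clotting factors and glucose metabolism in hepatocytes, and related genes in gut and pancreas. They act in a mutually reinforcing circuit with FOXA, ONECUT and GATA factors, which form early endoderm and then the organs that bud from it. In the embryo Hnf4a is also expressed in visceral endoderm, an extraembryonic tissue that makes many of the same serum proteins. Nr1h4 encodes FXR, the bile acid receptor, Prox1 and Pdx1 encode homeodomain factors of the liver bud and pancreas, and Cebpa encodes a leucine zipper factor of mature hepatocytes, fat and myeloid cells.

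Hnf4a lies on chromosome 2 (GRCm38, 163506808 to 163572910, plus strand) and has 2 promoters, an upstream one known mainly from pancreatic islets and a downstream one known from adult liver. Only 1 of its 5 GENCODE M21 transcripts is counted in the tables, NM_008261, which runs from 163547188 to 163572905 in 10 exons and begins at the downstream promoter. The counts therefore give no reading of which promoter was used. Hnf4a and Prox1 were taken for display because they were the members that rose. Each has 2 windows of 250 bases before a RefSeq start, and the window shown is the one that holds matches, so the display is selected. For Hnf4a this is the window at the upstream start, not the one near the start of the counted transcript. Every window was searched, on both strands, for short words of letters that the partner factors are known to bind. These were TGTTTAC or else the variant TGTTTGC for the FOX family to which Foxa2 belongs. For GATA factors the words were AGATAA, which begins with A, and also the variant TGATAA with a leading T. For the ONECUT factors the word was ATTGAT, and for nuclear receptors, which bind it singly or in pairs, it was AGGTCA. The longer words CAAAGTCCA and TTGCGCAA stood for HNF4 and for C/EBP. The capitals mark matches, and sequences are from RefSeq on GRCm38.p6, 5′ to 3′ on the strand of the gene, without annotated exon bases except the last bases of the GATA match.
Hnf4a, upstream start, chr2:163506607-163506810, plus strand: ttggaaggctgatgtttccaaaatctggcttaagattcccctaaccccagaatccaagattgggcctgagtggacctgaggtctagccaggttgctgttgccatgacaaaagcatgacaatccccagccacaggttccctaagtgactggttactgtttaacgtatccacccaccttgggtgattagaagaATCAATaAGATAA
Prox1, internal start, chr1:190169516-190169765, minus strand: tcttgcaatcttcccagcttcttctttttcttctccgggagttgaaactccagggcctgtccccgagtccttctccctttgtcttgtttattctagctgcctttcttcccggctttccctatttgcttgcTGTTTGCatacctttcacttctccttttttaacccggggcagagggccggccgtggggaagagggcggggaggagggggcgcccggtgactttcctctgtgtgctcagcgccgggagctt

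The upstream Hnf4a stretch holds an ONECUT match on the minus strand at bases -59 to -54 before the RefSeq start and a GATA match at -52 to -47, 1 base apart. The Prox1 stretch, inside the gene and outside its annotated exons, holds a FOX match at -120 to -114. Of 32851 RefSeq windows of 250 bases before a start, 6.72% hold the ONECUT letters, 16.6% the GATA letters and 7.29% the FOX letters. Matches are letters only and do not show binding. In the 8 windows found for 6 members, Nr1h4 had a GATA match at -131 to -126 and an AGGTCA match at -214 to -209. No match to any of these letters lay in the windows of Onecut1, Pdx1 and Cebpa or in the other window of Hnf4a and of Prox1, and the HNF4 and C/EBP letters, found in 0.384% and 0.164% of all windows, were in none of the 8.

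**Figure D1:**
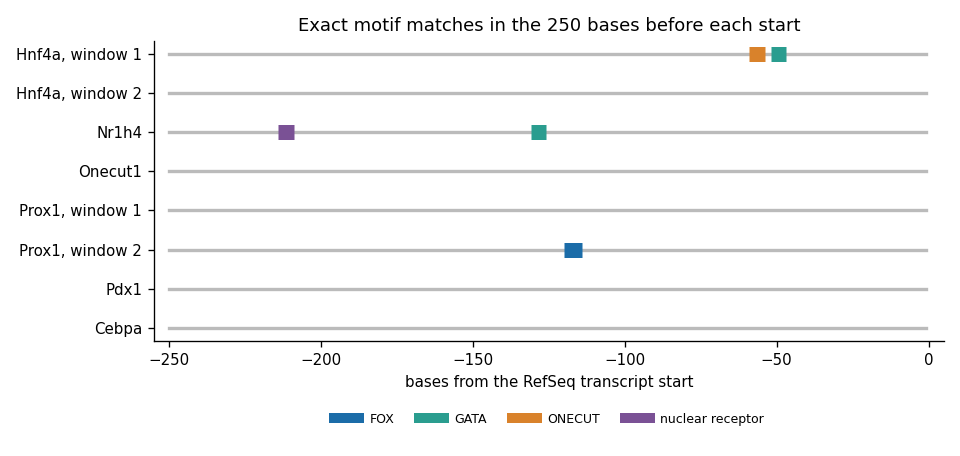
Positions of exact motif matches (coloured blocks) in the 250 bases before each RefSeq start of 6 members, with the distance from the start in bases on the x axis and 1 line per window. The ONECUT and GATA matches of Hnf4a window 1 lie at -59 to -54 and -52 to -47, and 5 of the 8 windows hold no match.

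Hnf4a was nearly silent in ESCs and was, per length, the highest of the 8 factors in d5FS. Its expected counts were 2 and 4 in d0, 6 and 43 in d3F, then 687 and 1061 in d5FS. In CPM these were 0.0905 and 0.18 in d0, 0.264 and 2.08 in d3F, then 41.7 and 60.4 in d5FS. Both d5FS samples lay above all others, both d3F samples lay above both d0 samples, and as a ratio the replicates differed most in d3F. The summed d5FS level was 45.6 times that of d3F, with an exact 95% interval of 34.3 to 61.8 that covers counting error only.

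Over replicates, Hnf4a rose by 8.39 (log2) between d0 and d5FS (SE 1.03, edgeR adjusted p = 0.0027), and it passed in all 6 fits that each left out a sample, at 7.87 to 9.06. From d3F to d5FS it rose by 5.40 (SE 0.84, edgeR adjusted p = 0.0263). That call was lost without d3F replicate 1 (4.50, edgeR adjusted p = 0.108), without d5FS replicate 1 (5.67, edgeR adjusted p = 0.108) or without d5FS replicate 2 (5.03, edgeR adjusted p = 0.118). From d0 to d3F the difference was 2.99 (SE 1.04, 95% interval 0.62 to 5.36) and did not pass (edgeR adjusted p = 0.146). It stood at 0.76 without d3F replicate 2 (edgeR adjusted p = 0.837) and at 3.87 without d3F replicate 1 (edgeR adjusted p = 0.0203), so the d3F level of Hnf4a rests on 1 sample.

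The paralog Hnf4g, whose protein binds the same DNA sequence and which is known mainly from gut and pancreas, stayed at the limit of detection (chromosome 3, 3508030 to 3658052). It had 1 and 1 counts in d0, 2 and 2 in d3F, then 0 and 1 in d5FS. The highest sample reached 0.0967 CPM, below the level of 3 counts, which corresponds to 0.132 to 0.182 CPM in these libraries. Of the HNF4 pair, the data thus hold a measurable difference for Hnf4a only, and any difference in Hnf4g was not detectable at this depth.

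Nr1h4 (chromosome 10, 89454234 to 89533585, minus strand) had no count in either d0 sample, either d3F sample or d5FS replicate 1. In d5FS replicate 2 it had 7 counts, 0.399 CPM with an exact 95% binomial (Clopper-Pearson) interval of 0.16 to 0.822 that covers counting error only. The 2 d5FS replicates thus disagreed on whether the bile acid receptor was detected, and it was too low for the test. Of 18 bile acid genes known to be regulated by FXR, 12 were likewise too low to test and none passed as higher in any comparison by edgeR or by the DESeq2 Wald test. At an unadjusted p under 0.05, d3F had 0 above d0, while d5FS had 2 above d3F and 2 above d0. Fgf15, the intestinal hormone gene that FXR switches on, had 5.52 and 2.38 CPM in d0, 10.8 and 2.47 in d3F, then 0.304 and 0.342 in d5FS. Between d0 and d5FS Fgf15 fell by 3.66 on the log2 scale (edgeR adjusted p = 0.0169) and between d3F and d5FS it fell by 4.30 (edgeR adjusted p = 0.0478). Both calls were lost without d5FS replicate 1 (edgeR adjusted p = 0.106 and 0.278) or without d5FS replicate 2 (edgeR adjusted p = 0.0801 and 0.191), and the second also without d3F replicate 1 (edgeR adjusted p = 0.291). Slc51b, a bile acid exporter subunit, had no count in any of the 6 samples.

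The dimer partner and the relatives of FXR passed the filter on low counts. RXRA, the dimer partner of FXR, was encoded at 14.2 and 14.2 CPM in d0, 34.1 and 35.7 in d3F, then 71.5 and 115 in d5FS. The 3 populations did not overlap for Rxra, and its log2 fold change between d0 and d5FS was 2.60 (edgeR adjusted p = 0.00363). The steps from d0 to d3F (1.20, edgeR adjusted p = 0.0898) and from d3F to d5FS (1.40, edgeR adjusted p = 0.0884) did not pass singly. The oxysterol receptor genes Nr1h2 and Nr1h3, and Nr1h5, the closest relative of Nr1h4, passed in no comparison. From d0 to d5FS the log2 differences were -0.68 for Nr1h2 (edgeR adjusted p = 0.272), -1.02 for Nr1h3 (edgeR adjusted p = 0.21) and -1.82 for Nr1h5 (edgeR adjusted p = 0.0902).

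**Figure D2:**
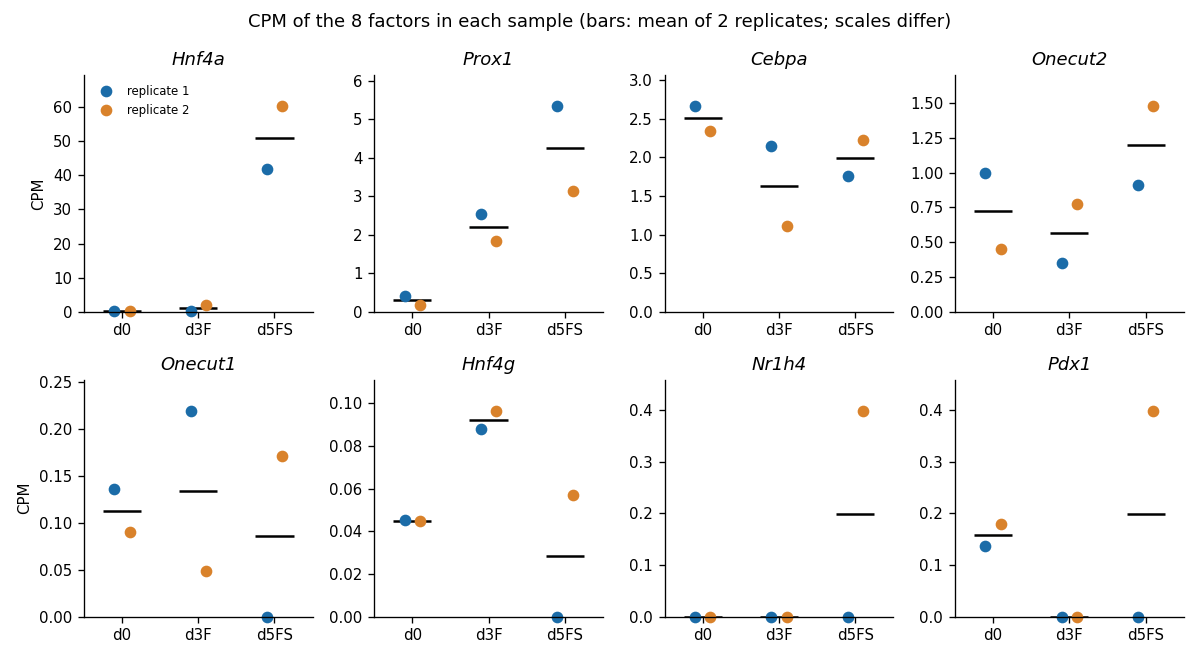
CPM of the 8 factors in each sample, with d0, d3F and d5FS on the x axis, replicate 1 in blue, replicate 2 in orange, black bars at the mean of 2 replicates and a separate scale per gene. Hnf4a reaches 41.7 and 60.4 CPM in d5FS, Prox1 separates by population, and the 4 genes of the lower row stay below 0.4 CPM.

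Prox1, a homeodomain factor needed for hepatoblasts to leave the liver bud and known also from lymphatic endothelium and lens, passed as higher already in d3F (chromosome 1, 190118035 to 190170714, minus strand). It had 9 and 4 counts in d0, 58 and 38 in d3F, then 88 and 55 in d5FS, or 0.407 and 0.18 CPM, 2.55 and 1.84 CPM, then 5.35 and 3.13 CPM. No sample of one population overlapped another in CPM. From d0 to d3F Prox1 rose by 2.79 on the log2 scale (SE 0.62, 95% interval 1.39 to 4.20, edgeR adjusted p = 0.0421). From d0 to d5FS it rose by 3.72 (SE 0.63, 95% interval 2.29 to 5.15, edgeR adjusted p = 0.00641). The step from d3F to d5FS was 0.93 (SE 0.53, 95% interval -0.30 to 2.15) and did not pass (edgeR adjusted p = 0.405).

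The d0 to d3F call of Prox1 was close to the threshold. It was kept without d0 replicate 1 (3.35, edgeR adjusted p = 0.0491) and lost in the other 5 fits that each left out 1 sample, at 2.43 to 2.94 on the log2 scale, the lowest being the fit without d0 replicate 2 (edgeR adjusted p = 0.151). The log2 values were 2.65 without d3F replicate 1, 2.94 without d3F replicate 2 and 2.81 without d5FS replicate 1 or without d5FS replicate 2, with edgeR adjusted p of 0.151, 0.167, 0.08 and 0.0745 in that order. The d0 to d5FS call was kept in all 6, at 3.35 to 4.26. An antisense gene, Prox1os, shares 133 of the 7913 exon bases of the counted Prox1 transcript, and the TruSeq V2 libraries do not keep strand, so reads there cannot be assigned to a strand. Markers of endothelium, where Prox1 is also known, summed to 62.0 to 83.7 CPM in d0, 37.9 to 40.9 in d3F, then 97.6 to 113 in d5FS. Pdpn, which is not specific to endothelium, took most of that sum, and without it the other 7 summed to 29.2 to 35.5 CPM in d0, 10.6 to 12.2 in d3F, then 8.2 to 11.9 in d5FS. These 7 did not move together from d0 to d3F. Over both replicates Pecam1 (852 to 81 counts), Tek (382 to 28) and Tal1 (77 to 9) fell, and Lyve1 had 2 and 1. Kdr (37 to 201), Flt4 (80 to 141) and Cdh5 (3 to 34) were higher in d3F, where Kdr did not pass (2.48 on the log2 scale, edgeR adjusted p = 0.152). Of 8 in the list, Pdpn passed as higher from d0 to d5FS, Tek and Pecam1 passed as lower, and Lyve1 and Cdh5, which define lymphatic and all endothelium, were too low to test. Their part in the Prox1 level was not tested. The relative Prox2 had a log2 difference of -0.08 from d0 to d5FS (edgeR adjusted p = 0.946).

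The ONECUT factors, known as HNF6 and its relatives, prepare liver and pancreas progenitors and bind DNA through a cut domain and a homeodomain. Onecut1 (chromosome 9, 74861921 to 74891781) had 3 and 2 counts in d0, 5 and 1 in d3F, then 0 and 3 in d5FS, no more than 0.22 CPM. Onecut2 had 22 and 10 counts in d0, 8 and 16 in d3F, then 15 and 26 in d5FS. Its CPM ran from 0.351 to 1.48 over all samples, from 0.995 and 0.449 in d0 to 0.911 and 1.48 in d5FS. The lower d5FS sample lay between the d0 samples and the higher one above both. The log2 differences of Onecut2 were -0.40 from d0 to d3F (95% interval -2.06 to 1.25, edgeR adjusted p = 0.818), 1.06 from d3F to d5FS (95% interval -0.59 to 2.70, edgeR adjusted p = 0.483) and 0.65 from d0 to d5FS (95% interval -0.96 to 2.26, edgeR adjusted p = 0.534). These intervals leave room for a change of more than 1 on the log2 scale in either direction for the first of them and upward for the others. Onecut3 was too low to test, with 3 counts in d0, 2 in d3F and 11 in d5FS over both replicates.

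Pdx1, which marks and maintains pancreas and duodenum, sits in the ParaHox cluster on chromosome 5 (147269959 to 147275848), 79011 bases from Gsx1 and 24956 bases from Cdx2. It had 3 and 4 counts in d0, 0 and 0 in d3F, then 0 and 7 in d5FS. The highest sample was d5FS replicate 2 at 0.399 CPM (exact 95% interval 0.16 to 0.822), and the d5FS replicates again disagreed on detection. Summed over both replicates, d0 and d5FS had 7 counts each. Its neighbour Cdx2, an intestinal and trophoblast homeodomain gene, had 2.35 and 4.31 CPM in d0, 1.58 and 0.677 in d3F, then 0.486 and 0.456 in d5FS. Between d0 and d5FS Cdx2 fell by 2.96 on the log2 scale (edgeR adjusted p = 0.019), a call lost without d0 replicate 2 (-2.30, edgeR adjusted p = 0.077), without d5FS replicate 1 (-2.96, edgeR adjusted p = 0.113) or without d5FS replicate 2 (-2.96, edgeR adjusted p = 0.0924). Gsx1 was too low to test.

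The 4 members that were too low to test (Hnf4g, Nr1h4, Onecut1 and Pdx1) together had 7 and 7 counts in d0, 7 and 3 in d3F, 0 in d5FS replicate 1 and 18 in d5FS replicate 2. In d5FS the sample with more counts was also the one with more genes detected (16790 and 19910). Genes detected were 16989 and 18682 in d0 and 16854 and 18382 in d3F, a narrower gap than in d5FS. In d0 and d3F replicate 2 had no more counts of these members than replicate 1. The part of the number of genes detected in these counts was not tested.

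Cebpa (chromosome 7, 35119293 to 35121928) was detected in every sample and passed in no comparison. It had 59 and 52 counts in d0, 49 and 23 in d3F, then 29 and 39 in d5FS, or 2.67 and 2.34 CPM, 2.15 and 1.11 CPM, then 1.76 and 2.22 CPM. Both d0 samples lay above all later ones, with a gap of 2.34 to 2.22 CPM to the nearest. The log2 differences were -0.73 from d0 to d3F (SE 0.53, 95% interval -1.93 to 0.47, edgeR adjusted p = 0.502), 0.29 from d3F to d5FS (SE 0.53, 95% interval -0.92 to 1.51, edgeR adjusted p = 0.815) and -0.44 from d0 to d5FS (SE 0.53, 95% interval -1.64 to 0.77, edgeR adjusted p = 0.58). The d0 to d5FS interval does not reach a rise of 1 on the log2 scale, so a rise of Cebpa of the size seen for Prox1 lies outside it. Of its paralogs, whose proteins can pair with C/EBP alpha, Cebpb, Cebpd and Cebpg passed in no comparison. From d0 to d5FS the log2 differences were 0.41 for Cebpb (edgeR adjusted p = 0.586), -1.65 for Cebpd (edgeR adjusted p = 0.0602) and 0.88 for Cebpg (edgeR adjusted p = 0.0905), and Cebpe was too low to test. Ddit3, a stress-induced relative that blocks binding by its partners, had 4.71 and 5.3 CPM in d0, 4.96 and 8.22 in d3F, then 17.3 and 13.7 in d5FS and passed from d0 to d5FS (1.5, edgeR adjusted p = 0.0384), a call lost without any single d0 or d5FS sample, at edgeR adjusted p of 0.067 to 0.164.

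Over the list of 19 paralogs and dimer partners of the members, 15 were tested, and edgeR called none from d0 to d3F or from d3F to d5FS. At an unadjusted p under 0.05, 1 was higher and 3 lower in the first of these and 2 higher and 1 lower in the second, and the DESeq2 Wald test called 1 higher and 2 lower, then 1 higher and 1 lower. From d0 to d5FS 2 passed as higher (Rxra and Ddit3) and 3 as lower (Cdx4, Cdx1 and Cdx2), with a median log2 difference of -0.68 over those tested. Without d5FS replicate 1 or without d5FS replicate 2, Rxra alone passed as higher and none as lower.

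**Figure D3:**
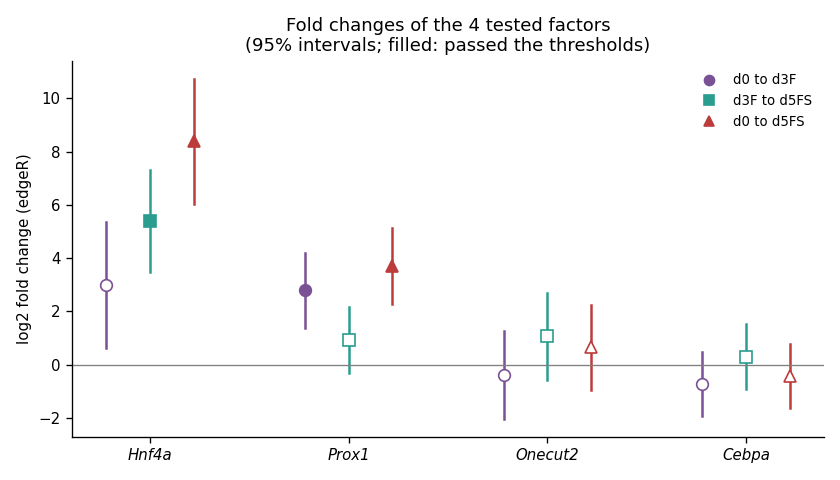
Log2 fold changes from edgeR (y axis) of the 4 members that passed the filter on low counts, in 3 comparisons, with 95% intervals as lines and filled symbols where both thresholds were passed. Hnf4a stands at 8.39 and Prox1 at 3.72 from d0 to d5FS, and every interval of Onecut2 and Cebpa spans 0.

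A call needs an adjusted p (Benjamini-Hochberg) below 0.05 together with a log2 fold change beyond 1 in size. Of the 8 members 4 were tested. Among those tested, 1 was called higher from d0 to d3F (Prox1), 1 from d3F to d5FS (Hnf4a) and 2 from d0 to d5FS (both). No member was called lower by edgeR or by the DESeq2 Wald test, 0 had an unadjusted p under 0.05 in that direction, and 4 of the 8 were removed by the filter on low counts. Without that filter none of the 4 passed, the lowest edgeR adjusted p being 0.242 for Nr1h4 from d0 to d5FS. Among all 14539 genes tested, 2.81% were called higher and 1.9% lower from d0 to d3F, 1.08% higher and 0.461% lower from d3F to d5FS, and 12.4% higher and 10.4% lower from d0 to d5FS. With so few members, their counts say no more than that Hnf4a and Prox1 were among these genes.

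Per length, the leading member changed between populations. On TPM rescaled to coding genes, Cebpa was highest in d0, at 1.53 and 1.19. Below it lay Pdx1 at 0.175 and 0.211, Prox1 at 0.153 and 0.0702 and Hnf4a at 0.0219 and 0.0702, among others. In d3F Cebpa (1.22 and 0.595), Prox1 (0.884 and 0.626) and Hnf4a (0.0884 and 0.658) overlapped. In d5FS Hnf4a led with 14.9 and 18.7, followed by Prox1 (2.01 and 1.04) and Cebpa (1.07 and 1.17), whose ranges overlapped. Onecut2 (0.104 and 0.13) lay lower, within the wide ranges of Pdx1 (0 and 0.476) and Nr1h4 (0 and 0.303), so their order was not resolved. Hnf4a was separated from the next member by more than the spread of either, and in the TPM as deposited it stood at 4.3 and 4.33.

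The factors that work with the HNF4 and ONECUT proteins in liver and endoderm were mostly detected. Of a list of 22, 16 were tested, and from d0 to d5FS 11 passed as higher and 1 as lower, with a median log2 difference of 4.37 over those tested against 0.02 over all genes. The 11 include Foxa2 and Sox17, on which the cells were sorted. Gata4 went from 1.49 and 2.52 CPM in d0 to 167 and 333 in d5FS, a rise of 6.83 on the log2 scale (edgeR adjusted p = 0.00304).

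From d0 to d3F 6 of these partners passed as higher, Foxa2 (8.42), Sox9 (5.81), Gata6 (5.41) and Gata4 (4.47 on the log2 scale) by the most. Without d0 replicate 2 or without d3F replicate 2, 3 of them passed. Nr5a2, a nuclear receptor of ESCs and liver, fell by 4.08 (edgeR adjusted p = 0.0151), and no partner passed as lower without d3F replicate 1 or without d3F replicate 2. From d3F to d5FS only Foxa3 and Sox17 passed. Foxa3, the FOXA gene most tied to differentiated liver and gut, had 4.71 and 4.36 CPM in d0, 5.8 and 5.32 in d3F, then 40.6 and 60.2 in d5FS (3.17 from d3F to d5FS, edgeR adjusted p = 0.013). Neither Foxa3 nor Sox17 passed without d3F replicate 1 or without d5FS replicate 2. On TPM rescaled to coding genes, the mean d5FS level was 37.4 for Foxa3 and 16.8 for Hnf4a.

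**Figure D4:**
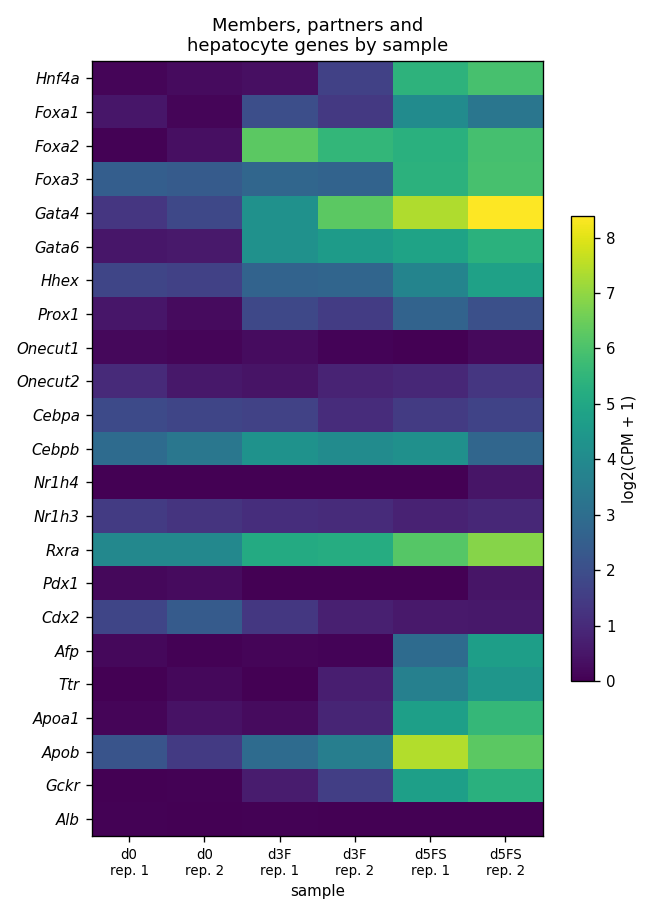
Levels of members, partner factors and hepatocyte genes chosen after their values were seen, as log2(CPM + 1) by colour, with 1 row per gene and 1 column per sample. Foxa2 and Gata6 are high from d3F on, Hnf4a, Foxa3, Afp and Apoa1 are high in d5FS only, and Onecut1 and Alb stay near 0 in all 6 samples.

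Among 37 hepatocyte genes known as targets of HNF4A, C/EBP alpha and other liver factors, 18 were too low to test, 12 passed as higher and 3 as lower from d0 to d5FS. The median log2 difference over the 19 tested was 5.46. Fgb, a fibrinogen chain, had no count in d0 and 272 counts in d5FS, at least 59.0-fold higher in CPM when d0 is set at 3 counts per library. On the same floor F10 (coagulation factor X) was at least 21.9-fold and Apoa4 (a lipoprotein of gut and liver) at least 21.6-fold higher. Gckr, which encodes the inhibitor of hepatic glucokinase, rose from 1 count in d0 to 1096 in d5FS over both replicates, with 25.5 and 38.6 CPM in d5FS (10.03 on the log2 scale, edgeR adjusted p = 0.00173). The others that passed as higher were Ttr, Apoa1, Afp, Fga, Tdo2, Apob, Rbp4 and Mttp, which encode serum carriers, lipoproteins and their assembly factor, a fibrinogen chain and a tryptophan-degrading enzyme. Trf, Ahsg and Apoa2 passed as lower. In the fits without 1 sample 10 to 13 passed as higher, and none as lower without d5FS replicate 1 or without d5FS replicate 2 and 1 without d0 replicate 2.

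From d3F to d5FS, where Hnf4a rose, 7 of these genes passed as higher and none as lower. Afp, the fetal serum protein, had 0.0878 and 0.0484 CPM in d3F and 6.56 and 25.1 in d5FS, a rise of 7.74 on the log2 scale (edgeR adjusted p = 0.016). Apoa1, the main protein of high-density lipoprotein, had 0.176 and 0.822 CPM in d3F and 25.6 and 47.3 in d5FS (6.16, edgeR adjusted p = 0.0183). Apoa4, Gckr, Apob, Rbp4 and Mttp made up the rest. This count was 0 without d3F replicate 1, 1 without d5FS replicate 1 or without d5FS replicate 2, and 11 without either d0 sample in turn. From d0 to d3F Gckr alone passed as higher and Trf alone as lower, and neither call held without d0 replicate 2, d3F replicate 2 or either d5FS sample. Alb, the main serum protein of mature hepatocytes, had no count in either d5FS sample, and the highest of the 18 untested genes in d5FS was Ambp at 0.911 CPM. Alb was named after its values were seen.

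Part of the markers of visceral endoderm were higher in d5FS, as Hnf4a and many of its known targets were. Of 12 in the list, all tested, 7 passed as higher from d0 to d5FS (Pla2g12b, Slc13a4, Apom, Cubn, Cited1, Dab2 and Tfpi) and none as lower, with a median log2 difference of 2.41. Among those that did not pass, Lrp2 (-0.26) and Rhox5 (-0.79) pointed downward. From d3F to d5FS 2 of the 12 passed as higher (Cubn and Slc13a4), with a median log2 difference of 2.32. None of the 12 was at 0 in either d5FS sample. Their summed level was 411 and 140 CPM in d0, 207 and 167 in d3F, then 473 and 249 in d5FS, with d0 and d5FS overlapping. Lrp2 took a large and variable part of it, 346 and 43.0 CPM in d0 and 292 and 48.6 in d5FS, and without it the other 11 summed to 64.5 and 97.3 CPM in d0, 53.3 and 55 in d3F, then 181 and 200 in d5FS, which did not overlap d0. Of 8 parietal endoderm markers 6 passed as higher from d0 to d5FS, with sums of 331 to 430 CPM in d0 and 1560 to 1850 in d5FS. Sparc (mean 629 CPM), Lamb1 (556), Col4a1 (255) and Col4a2 (159) took most of the d5FS sum. Lama1 (0.03 on the log2 scale) and Plat (1.47) did not pass. Of 8 markers of fibroblast feeder cells 4 passed as higher from d0 to d5FS, with sums of 18.6 to 26.8 CPM in d0 and 199 to 256 in d5FS. Col1a2, at a mean of 136 CPM, took the largest part of the d5FS sum. Thy1 (-1.62 on the log2 scale), Fbn1 (-0.92) and Dcn (0.47) did not pass, and Lum, 1 of the 8, was at 0 in both d5FS samples. By the study's methods the ESCs were depleted of feeder cells and passaged on gelatine before differentiation and sorting. The part of such cells in the levels of Hnf4a, Prox1 and the hepatocyte genes was not tested.

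Of 22 pancreatic genes, 10 were tested, and from d0 to d5FS Rfx6 passed as higher while Neurod1, Insm1 and Mafa passed as lower. Rfx6, a winged-helix factor of early gut endoderm and endocrine pancreas, had 3.21 and 0.18 CPM in d0, 1.19 and 1.21 in d3F, then 20.6 and 25.9 in d5FS (3.75 on the log2 scale, edgeR adjusted p = 0.0218). Neurod1, an endocrine and neural factor, fell by 4.51 (edgeR adjusted p = 0.0157). Rfx6 and Neurod1 lost their calls without d5FS replicate 1 (edgeR adjusted p = 0.0728 and 0.0837) or without d5FS replicate 2 (edgeR adjusted p = 0.0806 and 0.0919), and Neurod1 also without d0 replicate 1 (edgeR adjusted p = 0.0568). Mafa kept its call only without d0 replicate 1, and Insm1 lost its call without d5FS replicate 1 (edgeR adjusted p = 0.0565), so at most 2 of the 3 passed as lower in any fit without 1 sample, and none without d5FS replicate 1. Of 21 intestinal genes, 12 were tested, 3 passed as higher (Lgr5, Tff3 and Vil1) and 6 as lower (Cdx1, Slc5a1, Gpa33, Cdx2, Anpep and Klf5). Lgr5, a Wnt target that marks intestinal stem cells, already passed from d0 to d3F (4.37, edgeR adjusted p = 0.0144), and Vil1, which encodes villin of the brush border and is also expressed in visceral endoderm, passed from d3F to d5FS (5.15, edgeR adjusted p = 0.013), as did Tff3 and Ascl2. The 6 lower calls fell to 1 without d0 replicate 2, 0 without d5FS replicate 1 and 1 without d5FS replicate 2, and the 3 of the step to d5FS fell to 0 without d3F replicate 1 or without d5FS replicate 2 and to 1 without d3F replicate 2 or without d5FS replicate 1. The d0 to d3F call of Lgr5 was lost without d0 replicate 2 (edgeR adjusted p = 0.0527). Over the tested genes the median log2 difference from d0 to d5FS was 0.11 for the pancreatic and -1.05 for the intestinal list.

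**Figure D5:**
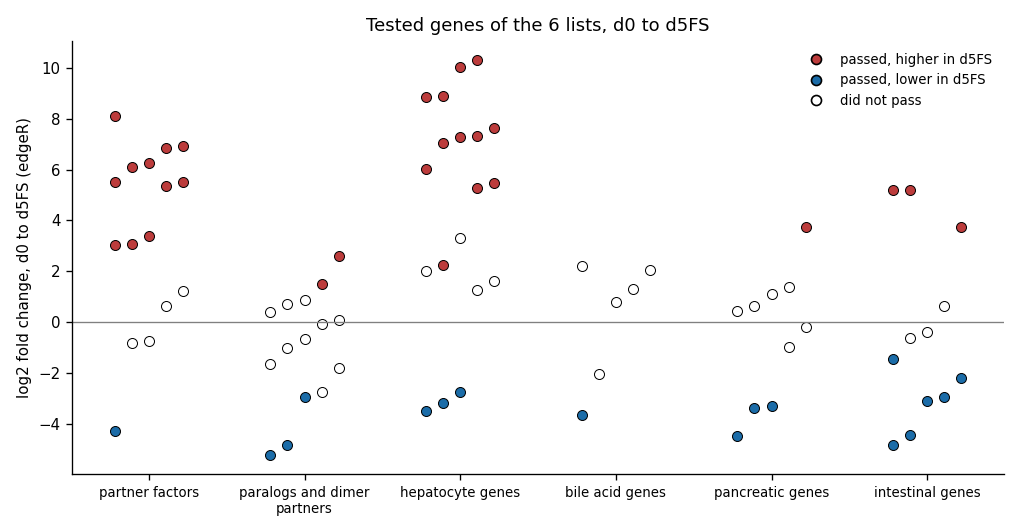
Log2 fold changes from d0 to d5FS (edgeR, y axis) of the tested genes of 6 lists, 1 point per gene, spread sideways for legibility only, red or blue where both thresholds were passed. The hepatocyte list holds 12 red and 3 blue points, the partner factors 11 and 1, and the pancreatic list 1 and 3.

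By Pearson correlation of log2 CPM over the 6 samples, among 10956 genes with at least 1 TPM on average in a population, the genes most like Hnf4a were Fgb (0.996), Zranb1 (0.995) and Pdzk1 (0.995). Those most like Prox1 were Rnf103 (0.998), Fam89a (0.997) and Cblb (0.997). With 254 genes above 0.95 for Hnf4a and 308 for Prox1, these names stand for broad patterns, rising late for the first and stepwise for the second. Cebpa and Onecut2 had 6 and 3 genes above 0.95, led by Cmpk1 (0.988) and Schip1 (0.975). The 6 points share their libraries and population means, and the values are descriptions.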

How the data were processed

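RNA-seq of d0, d3F and d5FS cells was used, 2 replicates each. According to the study's methods, ribosomal RNA was depleted, TruSeq V2 libraries were sequenced as paired ends, and reads were aligned to mm10 with STAR; RSEM then gave gene values over RefSeq. Versions are not given in the sources used here. The authors deposited, per gene, expected counts (estimated fragments, not normalized), TPM (per length, scaled to 1 total) and FPKM, which was not used. The groups came from the labels. In every population, a separate list sets an mRNA library beside a total RNA library, without saying which replicate is which. The listed preparation thus differs within each pair of replicates, and its effect cannot be told apart from that of replicate.

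Expected counts, rounded to integers, entered edgeR 4.0.16 (R 4.3.3). The filter was filterByExpr (minimum count 10, 14539 of 24054 genes), libraries were scaled by TMM, and 1 quasi-likelihood model held all 6 samples with 3 residual degrees of freedom. P-values were adjusted by Benjamini-Hochberg over all tested genes. They rest on the spread between the 2 replicates within all 3 populations together, moderated across genes, so a comparison also depends on the population outside it. SE is the absolute log2 fold change over the square root of F. Alternatives used DESeq2 1.42.0, other filters, samples and scalings. Intervals on counts are exact at 95%, and the floor is 3 counts. On simulated data for d0 to d5FS (14270 genes, 200 changed), edgeR recovered 43% of log2 changes of 2 and 98% of 4, and 4.082% of its calls were false. The simulation gave all genes the same dispersion, held no replicate effect and changed only genes above a minimum mean count. These rates therefore need not hold for the real replicates or for members with few counts.

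The members and lists were chosen with earlier results of these data known. Values were given mainly for the members, their paralogs, at most 4 called genes per list and comparison, the 3 genes most correlated with each tested member, and markers. Other called genes were named without values, and Slc51b, Ambp and Alb were named in addition. Positions are from GENCODE M21 on GRCm38, the build of the files, and upstream sequences from RefSeq. Some items are not reported here. Scripts used Python 3.11.15, pandas 2.3.3, scipy 1.17.1 and matplotlib 3.10.9.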

Additional observations from a re-analysis of the deposited data

How the results depend on the processing

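Leaving out 1 sample at a time gave 0 to 1 member called from d0 to d3F, 0 to 1 from d3F to d5FS and 2 to 2 from d0 to d5FS. Over all genes these fits called 97 to 978, 0 to 497 and 1047 to 3044 genes in the 3 comparisons. From d0 to d3F, where 684 genes passed, the count was 1933 without a filter, 1516 by the DESeq2 Wald test, 384 by DESeq2 against a log2 fold change of 1 and 430 with only the groups compared, and members called were then 2, 2, 0 and 0. Hnf4a joined Prox1 there without a filter (edgeR adjusted p = 4.78e-05) and by the Wald test (DESeq2 adjusted p = 0.0143), and Prox1 was lost against a log2 fold change of 1 (DESeq2 adjusted p = 0.381) and with only the groups compared (edgeR adjusted p = 0.065). From d3F to d5FS, where 224 passed, the counts were 1423 without a filter, 1094 by the Wald test and 529 with only the groups compared. From d0 to d5FS, where 3311 passed, DESeq2 against a log2 fold change of 1 gave 1034. The cause was not tested.

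The labels do not say what the replicate number marks. The RNA preparation listed for the libraries differs within each population, without a replicate number. Deviations of same-numbered samples from their population means correlated at 0.314, 0.324 and 0.278, and in every population replicate 2 had more genes with a count (16989 and 18682, 16854 and 18382, 16790 and 19910) and a larger noncoding share of TPM than replicate 1. With the replicate block, 1320 genes passed in the first comparison and 917 in the second, and the members called did not change (Hnf4a from d0 to d3F 2.80, edgeR adjusted p = 0.0726).

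Leaving out 1 sample turned the sign of 2 uncalled differences: Onecut2 from d0 to d3F, at -1.17 to 0.13 over these fits, became 0.12 without d0 replicate 1 and 0.13 without d3F replicate 1, and Cebpa from d3F to d5FS, at -0.04 to 0.72, became -0.04 without d3F replicate 2. Levels moved with scaling: Hnf4a in d5FS from 4.31 TPM to 4.18 with TMM scaling and 16.8 over coding genes; on coding genes Prox1 in d5FS became 1.52, Cebpa 1.12 and Onecut2 0.117, Onecut2 was 0.0291 TPM with TMM scaling, and Hnf4g in d0 0.0476 CPM. List counts under these settings were added after seeing the data; from d0 to d5FS the hepatocyte genes called higher ranged from 8 to 16 and the partner factors from 9 to 12.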
